A study of Mus musculus with 18 samples.

Results

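The genes described here encode the granule proteins of eosinophils (Prg2, Prg3, Epx, Ear1, Ear2, Ear6 and Ear10) and the receptors through which eosinophils take up their growth and homing signals (Il5ra and Ccr3). The 9 genes were listed by symbol, and each was read from the probe set with the highest mean log2 signal for that symbol. A probe set carried the symbol of 7 of the 9, out of 19505 genes with a named probe set, and each of these 7 had 1 probe set. Ear1 and Ear2 were not analysed here. RNA of 18 mice, 1 array each, came from marrow cells that the labels call mesenchymal stromal cells, a supporting population able to give rise to bone and fat. The 4 groups were BALB/c control mice of 12 weeks (5 mice), NeuT mice of 12 weeks (5 mice), BALB/c control mice of 24 weeks (4 mice) and NeuT mice of 24 weeks (4 mice). NeuT mice are known as a model of mammary cancer driven by an activated rat neu (Erbb2) oncogene under a mouse mammary tumour virus promoter; the labels name neither the oncogene nor the promoter. At both ages the labels describe the NeuT mice as tumour-bearing, and what the oncogene and what the tumours contribute cannot be told apart. The cells were taken from femurs and tibias by removing cells with magnetic beads against CD45, Ter119, CD11b, CD11c, CD3, Gr1 and B220, and were checked by flow cytometry as CD45-, CD29+ and CD44+.

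Eosinophils are granulocytes of type 2 immunity that develop in the bone marrow from GATA1-dependent progenitors under interleukin 5, and leave it for tissues along gradients of eotaxins. Their granules hold major basic protein, eosinophil peroxidase and a set of ribonucleases, most of which are transcribed during maturation in the marrow rather than in the mature cell. Prg2 encodes major basic protein and Prg3 its close homologue, Epx encodes eosinophil peroxidase, and the Ear genes encode the eosinophil-associated ribonucleases, a family of near copies in the mouse. Il5ra encodes the interleukin 5 binding chain of the interleukin 5 receptor, and Ccr3 encodes the eotaxin receptor. Basophils, which arise from related progenitors, are also known to transcribe Prg2 and Prg3.

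The promoter sequences are shown because the granule genes and Il5ra varied together between mice, because the ribonuclease genes are near copies of one another, and because GATA1 is a known regulator of this lineage. Promoters of 8 of the 9 genes were found in the RefSeq table, and of 6 of the 7 measured ones; that of Prg2 was not. Each window holds the 250 bases before the annotated start, in build GRCm38.p6, written 5′ to 3′ in the direction of transcription. Capitals mark the letters GATA on either strand, which read GATA or TATC.
Prg3: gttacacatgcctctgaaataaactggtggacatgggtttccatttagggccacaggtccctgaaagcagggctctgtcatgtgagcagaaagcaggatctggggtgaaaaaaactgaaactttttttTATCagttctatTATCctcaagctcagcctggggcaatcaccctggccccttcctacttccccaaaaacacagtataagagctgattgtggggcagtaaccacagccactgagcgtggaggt
Epx: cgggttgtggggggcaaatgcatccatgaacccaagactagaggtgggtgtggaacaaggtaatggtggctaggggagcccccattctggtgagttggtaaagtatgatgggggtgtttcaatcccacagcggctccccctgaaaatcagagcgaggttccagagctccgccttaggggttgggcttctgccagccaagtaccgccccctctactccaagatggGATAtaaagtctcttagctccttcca
Ear6: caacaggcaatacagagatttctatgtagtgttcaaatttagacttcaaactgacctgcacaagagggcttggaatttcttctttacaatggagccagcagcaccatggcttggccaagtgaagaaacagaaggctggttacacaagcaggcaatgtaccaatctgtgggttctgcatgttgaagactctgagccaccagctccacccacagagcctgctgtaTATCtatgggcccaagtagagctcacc
Ear10: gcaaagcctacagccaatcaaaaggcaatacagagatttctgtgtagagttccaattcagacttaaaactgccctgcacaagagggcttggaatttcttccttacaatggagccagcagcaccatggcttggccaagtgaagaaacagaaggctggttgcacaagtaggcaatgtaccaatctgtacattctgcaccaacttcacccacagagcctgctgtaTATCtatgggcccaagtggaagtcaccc
Il5ra: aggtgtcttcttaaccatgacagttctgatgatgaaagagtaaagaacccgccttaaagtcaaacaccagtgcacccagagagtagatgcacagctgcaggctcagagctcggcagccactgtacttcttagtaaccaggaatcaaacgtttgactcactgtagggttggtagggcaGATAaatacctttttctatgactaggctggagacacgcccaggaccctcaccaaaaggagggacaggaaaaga
Ccr3: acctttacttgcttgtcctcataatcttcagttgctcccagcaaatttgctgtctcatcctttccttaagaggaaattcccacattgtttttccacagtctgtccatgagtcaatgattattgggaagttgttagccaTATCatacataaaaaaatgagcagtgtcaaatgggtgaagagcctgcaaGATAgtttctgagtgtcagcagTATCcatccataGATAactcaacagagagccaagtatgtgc
The Prg3 window lies at chr2:84987965-84988214 on the plus strand, next to Prg2, and holds 2 matches. The Epx window lies at chr11:87875537-87875786 on the minus strand and holds 1 match, which begins 26 bases before the start. The Ear6 window lies at chr14:51853518-51853767 on the plus strand and the Ear10 window at chr14:43923597-43923846 on the minus strand, each with 1 match, which begins 27 and 28 bases before the start. The Il5ra window lies at chr6:106749038-106749287 on the minus strand and holds 1 match, 73 bases before the start. The Ccr3 window lies at chr9:124021721-124021970 on the plus strand, beside Ccr2, and holds 4 matches. Of all 32851 windows of this length, 53.6% held at least 1 match, 24.2% at least 2 and 3.52% at least 4, so a single match is shared with most promoters. The Ear6 and Ear10 windows were identical at 79.2% of aligned bases. Those of Ear10 and Ear1 were identical at 91.7% and those of Ear1 and Ear2 at 97.6%, whereas the windows of Prg3 and Epx matched at 46.7%. The Ear6 probe set is assigned 2 accessions, and whether probes of Ear6 or Ear10 also read the other ribonuclease genes was not tested.

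Array medians on the log2 scale ran from 8.43 to 8.56. The number of arrays limits the precision, and the labels give no processing batch, so age and any batch of the 12- and 24-week mice cannot be told apart. BALB/c 24-week replicate 1 had the lowest top signal of any array, 13.68, against 14.06 to 14.24 in the others. The median correlation of an array with the others, across genes, which are not independent replicates, ran from 0.987 to 0.995. It was lowest for NeuT 12-week replicate 4, for BALB/c 24-week replicate 3 and for NeuT 24-week replicate 1. The negative controls on the arrays had a median of 7.35 and a 95th percentile of 10.46 in log2 signal, and these marks stand in for a detection limit. The table holds no detection calls, and a level is set here only against these controls, never against another gene's probe set. Ptprc, which encodes the depleted antigen CD45, read above that 95th percentile on all 18 arrays (11.70 to 12.45), as did Itgb1 and Cd44, which encode CD29 and CD44. Lepr, a receptor of marrow stromal cells, read below the control median on all 18 arrays (5.20 to 5.80). It was the only measured stromal gene to do so. Col1a1 (9.69 to 10.23), Cxcl12 (9.04 to 9.45) and Pdgfrb (7.96 to 8.92), for example, lay between the control median and the 95th percentile on all 18 arrays. In bulk RNA of this kind, fewer cells of a type and less RNA per cell cannot be told apart.

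Prg2, Prg3 and Epx read above most negative controls in a preparation labelled as stromal. Prg2 and Prg3 exceeded the 95th percentile of the controls on 18 of 18 arrays and Epx on 17. Ear6 did so on 2 arrays and was above the control median on 18. Ear10 and Il5ra lay between the 2 control marks on 17 arrays each. Ccr3 read below the control median on 18 of 18 arrays, so its values compare signals and the size of any change in its transcript is not known.

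**Figure D1:**
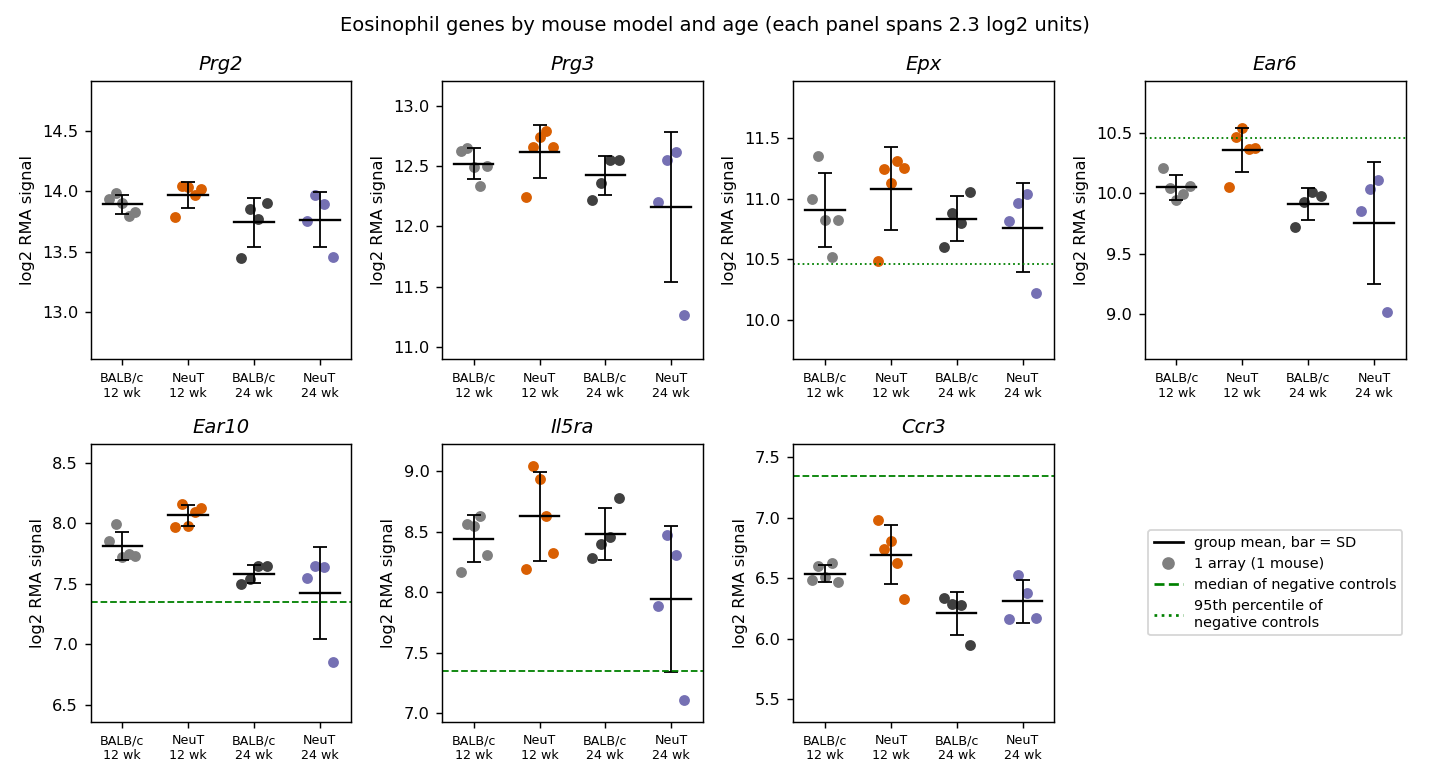
Log2 RMA signal of the 7 measured genes in BALB/c and NeuT mice of 12 and 24 weeks, with 1 point per array, a line at the group mean, a bar of 1 SD and the negative control marks (dashed, median; dotted, 95th percentile) where they fall in range. In NeuT 24-week mice 1 array, replicate 4, lies below the other 3 for 6 genes, such as Prg3 at 11.27 against 12.20 to 12.62.

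No measured eosinophil gene passed the test between NeuT and BALB/c mice at 12 weeks (0 of 7, against 3.84% of all genes; limma, Benjamini-Hochberg adjusted over 19505 genes, threshold 0.05). At an unadjusted p under 0.05 there were 2 of the 7, Ear6 and Ear10, against 21.0% of all genes. The log2 differences ran from 0.080 to 0.31 with a median of 0.18, and the median over all genes was -0.025. No gene separated the groups without overlap, which 7.46% of all genes did.

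At 24 weeks 0 of 7 passed, against 1.40% of all genes. Il5ra alone had an unadjusted p under 0.05, against 13.2% of all genes. The log2 differences ran from -0.54 to 0.097 with a median of -0.16; the median over all genes was -0.00014. Again no gene separated the groups without overlap, which 6.72% of all genes did. No measured gene that was tested passed at either age under any alternative setting run. The filter at the 95th percentile of the controls tested only Prg2, Prg3 and Epx, and the filter at their median left out Ccr3.

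Prg2, which encodes the main protein of the granule core, had its lowest level at 13.45 in BALB/c 24-week replicate 1 and its highest at 14.04 in NeuT 12-week replicate 2. BALB/c 24-week replicate 1 was also the array with the lowest top signal, 13.68. Whether differences are compressed at signals this high was not tested. The group means were 13.89 ± 0.078 (SD, n = 5) and 13.97 ± 0.11 (n = 5) in BALB/c and NeuT mice at 12 weeks, and 13.74 ± 0.20 (n = 4) and 13.77 ± 0.23 (n = 4) at 24 weeks. All 4 groups overlapped. The NeuT difference was 0.080 at 12 weeks (95% interval -0.12 to 0.28, adjusted p = 0.660) and 0.024 at 24 weeks (-0.19 to 0.24, adjusted p = 0.949).

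Prg3, the major basic protein homologue next to Prg2 in the genome, varied more. At 12 weeks it read 12.62, 12.65, 12.49, 12.33 and 12.50 in the BALB/c mice and 12.24, 12.66, 12.74, 12.79 and 12.65 in the NeuT mice. Replicate 1 of the NeuT mice lay below every BALB/c mouse of that age and the other NeuT mice lay at or above the highest of them. At 24 weeks it read 12.22, 12.36, 12.55 and 12.55 in BALB/c and 12.20, 12.55, 12.62 and 11.27 in NeuT mice. NeuT replicate 4 was the lowest of all 18 arrays, and the other 3 NeuT mice spanned the BALB/c range. The NeuT difference was 0.099 at 12 weeks (95% interval -0.25 to 0.45, adjusted p = 0.774) and -0.26 at 24 weeks (-0.66 to 0.13, adjusted p = 0.587). Without NeuT 24-week replicate 4 the latter was 0.034.

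Epx, the peroxidase gene, read 10.90 ± 0.31 (SD, n = 5) in BALB/c control mice and 11.08 ± 0.34 (n = 5) in NeuT mice at 12 weeks, and 10.84 ± 0.19 (n = 4) and 10.76 ± 0.37 (n = 4) at 24 weeks. Its lowest array was NeuT 24-week replicate 4 at 10.22, the only one under the 95th percentile of the controls, followed by NeuT 12-week replicate 1 at 10.48. The groups overlapped at both ages. The NeuT difference was 0.18 at 12 weeks (95% interval -0.16 to 0.52, adjusted p = 0.551) and -0.075 at 24 weeks (-0.45 to 0.30, adjusted p = 0.896).

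Ear6, a ribonuclease of the family whose promoters are shown above, read 10.21, 10.04, 9.94, 9.99 and 10.06 in BALB/c control mice and 10.06, 10.47, 10.54, 10.37 and 10.37 in NeuT mice at 12 weeks. Apart from replicate 1, the NeuT mice lay above every BALB/c mouse. At 24 weeks it read 9.72, 9.93, 10.01 and 9.98 in BALB/c and 9.85, 10.04, 10.11 and 9.01 in NeuT mice. There the groups overlapped, with replicate 4 of the NeuT mice lowest. The NeuT difference was 0.31 at 12 weeks (95% interval 0.016 to 0.61, adjusted p = 0.212) and -0.16 at 24 weeks (-0.49 to 0.17, adjusted p = 0.715), and 0.090 at 24 weeks without that array.

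Ear10 had 2 NeuT mice of 12 weeks, replicates 1 and 3 at 7.97 and 7.98, just under the highest BALB/c mouse of that age. The 12-week values were 7.86, 7.99, 7.72, 7.74 and 7.73 in BALB/c and 7.97, 8.16, 7.98, 8.09 and 8.13 in NeuT mice. At 24 weeks they were 7.50, 7.54, 7.65 and 7.64 in BALB/c and 7.55, 7.65, 7.64 and 6.86 in NeuT mice. The first 3 NeuT mice thus lay close to the BALB/c mice of that age and replicate 4 lay below them and below the control median. The NeuT difference was 0.26 at 12 weeks (95% interval 0.029 to 0.49, adjusted p = 0.182) and -0.16 at 24 weeks (-0.42 to 0.096, adjusted p = 0.614), and 0.029 at 24 weeks without replicate 4.

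Il5ra, the receptor chain that marks cells committed to the eosinophil lineage in the marrow, read 8.17, 8.57, 8.54, 8.63 and 8.31 in BALB/c control mice and 8.20, 9.05, 8.93, 8.63 and 8.33 in NeuT mice at 12 weeks. The groups overlapped from the bottom of the range up, and the 2 highest values were NeuT mice. At 24 weeks it read 8.28, 8.40, 8.46 and 8.78 in BALB/c and 7.89, 8.47, 8.31 and 7.11 in NeuT mice. NeuT replicates 1 and 4 lay below every BALB/c mouse, replicate 4 also below the control median, and replicates 2 and 3 lay within the BALB/c range. The NeuT difference was 0.18 at 12 weeks (95% interval -0.21 to 0.58, adjusted p = 0.609). At 24 weeks it was -0.54 (-0.98 to -0.091, unadjusted p = 0.0204, adjusted p = 0.263; limma), and -0.26 without replicate 4.

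Ccr3 ranged from 5.95 in BALB/c 24-week replicate 4 to 6.98 in NeuT 12-week replicate 1. Its NeuT difference was 0.16 at 12 weeks (95% interval -0.056 to 0.37, adjusted p = 0.391) and 0.097 at 24 weeks (-0.14 to 0.34, adjusted p = 0.761), all below the control median. In contrast to the granule genes, its highest value came from NeuT 12-week replicate 1, an array on which the other 6 genes were lowest of their group.

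**Figure D2:**
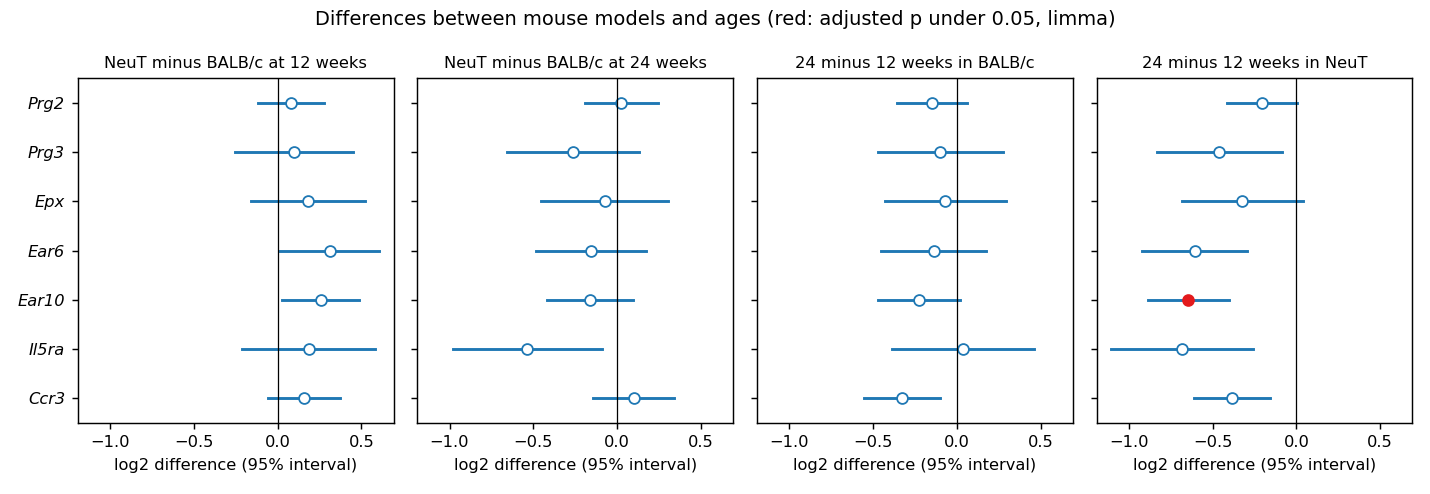
Log2 differences (points) with 95% intervals (lines) of the 7 genes for 4 contrasts; a filled red point passed at an adjusted p under 0.05 in limma. Ear10 for 24 minus 12 weeks in NeuT mice, at -0.64, is the only filled point.

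Whether the NeuT difference changed with age was tested directly, with the same 18 arrays that give the 2 differences themselves. None of the 7 genes passed, against 0.0103% of all genes (limma, smallest adjusted p of 0.724 among the 7). At an unadjusted p under 0.05 there were 3 of 7, against 6.50% of all genes. The change was -0.72 for Il5ra (95% interval -1.32 to -0.12), -0.47 for Ear6 (-0.91 to -0.025) and -0.42 for Ear10 (-0.76 to -0.074). Without NeuT 24-week replicate 4 these became -0.44, -0.22 and -0.23.

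Between the ages, Ear10 fell in NeuT mice, by 0.64 on the log2 scale (SE 0.12, 95% interval -0.89 to -0.40, limma adjusted p = 0.0469). Ear10 exceeded the 95th percentile of the controls on 0 of 18 arrays and its NeuT mean at 24 weeks, 7.42, lay near the control median of 7.35, so the value compares signals and the size of any change in its transcript is not known. It was 1 of 7 measured genes to pass, against 0.0359% of all genes (7 of 19505) in either direction and 0.0103% in the direction of a fall. Its groups did not overlap: all 4 NeuT mice of 24 weeks, at 6.86 to 7.65, lay below all 5 of 12 weeks, at 7.97 to 8.16, a separation that 5.08% of all genes showed. Without replicate 4 the 24-week mice still lay apart, with a difference of -0.46 and an adjusted p of 0.135. The call also ended without NeuT 12-week replicate 1, 2 or 4 and without NeuT 24-week replicate 1 (adjusted p of 0.0795 to 0.127), and it held without each of the other 4 NeuT arrays. It ended too under a further quantile normalisation, cyclic loess and median centring (adjusted p of 0.0565 to 0.0698) and in a fit of the NeuT groups alone (adjusted p = 0.248).

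The remaining genes did not pass in NeuT mice, and their values follow. Ear6 differed by -0.61 (95% interval -0.92 to -0.29, adjusted p = 0.106), and by -0.36 without replicate 4. Il5ra differed by -0.68 (-1.11 to -0.26, adjusted p = 0.154), and by -0.41 without it. Prg3 differed by -0.46 (-0.83 to -0.085, adjusted p = 0.276), and by -0.16 without it. For Prg2, Epx and Ccr3 the differences were -0.20, -0.32 and -0.39, with adjusted p of 0.408, 0.461 and 0.143. At an unadjusted p under 0.05 there were 5 of 7 genes, against 12.6% of all genes. Leaving out NeuT 24-week replicate 2 instead brought Ear6 (-0.70, adjusted p = 0.0414) and Il5ra (-0.86, adjusted p = 0.0484) past the threshold too, which makes 3 of 7. Across the fits without single arrays, 1 to 177 of all genes passed for this contrast, against 7 in the full fit. The 3 of 7 therefore cannot be set against the share of all genes in the full fit.

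In BALB/c mice no gene passed between the ages (0 of 7, against 0.579% of all genes; 1 of 7 at an unadjusted p under 0.05, against 15.3%). The groups did not overlap for 2 of the 7, against 6.95% of all genes. One was Ear10, at 7.72 to 7.99 at 12 weeks and 7.50 to 7.65 at 24 weeks (difference -0.23, 95% interval -0.47 to 0.017, adjusted p = 0.366). The other was Ccr3, at 6.47 to 6.62 and 5.95 to 6.33 (difference -0.32, -0.55 to -0.098, adjusted p = 0.145). For Prg2, Prg3, Epx and Ear6 the differences ran from -0.15 to -0.068, and for Il5ra it was 0.038.

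The order of the group means for Ear10 was thus NeuT at 12 weeks (8.07 ± 0.088, SD, n = 5), BALB/c at 12 weeks (7.81 ± 0.12, n = 5), BALB/c at 24 weeks (7.58 ± 0.076, n = 4) and NeuT at 24 weeks (7.42 ± 0.38, n = 4). No 2 neighbours in this order differed by the test. Ear6 had the same order, with 10.36 ± 0.18, 10.05 ± 0.10, 9.91 ± 0.13 and 9.75 ± 0.51, and so did Prg3, with 12.62 ± 0.22, 12.52 ± 0.13, 12.42 ± 0.16 and 12.16 ± 0.62, also with no neighbours that differed by the test. For these genes the SD of the NeuT mice of 24 weeks was the largest of the 4 groups.

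Within the groups the eosinophil genes varied together from mouse to mouse, with Ccr3 as the exception. After each group's mean was removed, Pearson's r over the 18 arrays was 0.63 to 0.96 for the 15 pairs among Prg2, Prg3, Epx, Ear6, Ear10 and Il5ra. Spearman's rho was 0.53 to 0.85. Over all 21 pairs computed, with 100000 permutations within groups and Benjamini-Hochberg adjustment over the pairs, 15 passed by r and 13 by rho, all of them among these 6 genes. Epx with Il5ra and Ear10 with Il5ra passed by r but not by rho (permutation, adjusted p = 0.0682 and 0.0699). The 6 pairs with Ccr3 had r of -0.25 to 0.25 and none passed. Ccr3 read below the control median on 18 of 18 arrays, so whether its transcript varies with the others is not known.

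The highest r was that of Prg3 with Ear6, genes on different chromosomes (r = 0.96, permutation p = 0.00034, adjusted 0.00178; rho = 0.75, permutation p = 0.00291, adjusted 0.00873). Without the 2 arrays farthest from the median of Prg3 it was 0.87, and without NeuT 24-week replicate 4 it was 0.86. Over the 15 pairs, r without the 2 farthest arrays of the first gene was 0.28 to 0.87. The lowest of these was Epx with Il5ra, which had 0.63 over all arrays, so the relation of this pair rests on those arrays. Ear10 with Il5ra was next, at 0.35 against 0.72 over all arrays. Without NeuT 24-week replicate 4 alone, r over the 15 pairs was 0.32 to 0.86, lowest for Ear10 with Il5ra. Arrays share their normalisation, and the part of array quality in these relations was not tested.

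**Figure D3:**
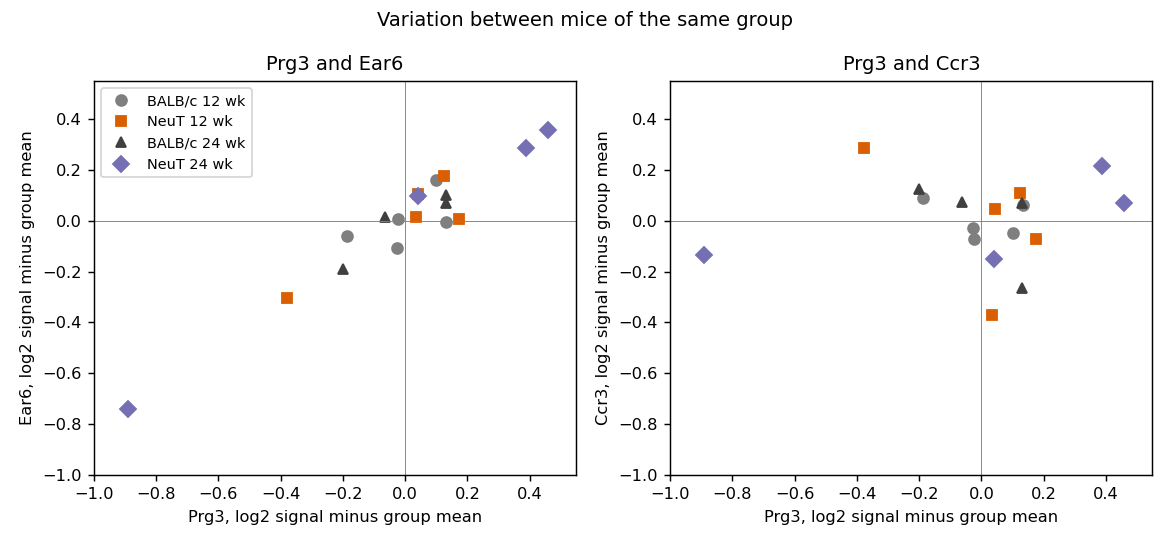
Deviation of each array from its group mean in log2 units, for Prg3 against Ear6 (left) and Prg3 against Ccr3 (right), with 1 point per array in the 4 groups. Prg3 and Ear6 line up (r = 0.96, with NeuT 24-week replicate 4 at the lower left), and Prg3 and Ccr3 do not (r = 0.059). Ccr3 read below the control median on all 18 arrays.

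The mouse at the low end was NeuT 24-week replicate 4. Against the mean of the other 3 NeuT mice of 24 weeks, its log2 signal differed by -1.19 for Prg3, -1.11 for Il5ra and -0.99 for Ear6. The difference was -0.76 for Ear10, -0.72 for Epx, -0.42 for Prg2 and -0.18 for Ccr3. It lay below all 3 of them for 6 of the 7 genes, and the share of all genes that did so was not computed. Against their mean, 6 of the 7 genes were lower by at least 0.3. Of all genes, 3.36% were lower on this array by at least 0.3 and 0.0564% by at least 1, and the median over all genes was 0.0087. This array was picked for its low values of these same genes, which vary together. The counts therefore describe it and are no test. The array had a median signal of 8.50, the highest top signal of the 18 arrays (14.24) and a median correlation with the other arrays of 0.992.

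Other cell type genes on the same array are given beside this, and their part in it was not tested. The B-cell list had a median of -0.58 against the other 3 mice and the erythroid list -0.33, both in the direction of the eosinophil genes. Of these 3 mice, NeuT 24-week replicate 1 read lower still in both lists. Its mean log2 signal was 10.06 for the B-cell list, against 10.15 in replicate 4, and 10.58 for the erythroid list, against 10.79. The mean of the 7 eosinophil genes was 9.745 in replicate 1, against 10.024, 9.997 and 9.157 in replicates 2, 3 and 4. Replicate 1 thus lay below replicates 2 and 3. It lay 0.014 above the group mean, which includes the low value of replicate 4. The neutrophil list had 0.27, the neutrophil and monocyte precursor list 0.18, the monocyte and macrophage list 0.018 and the stromal list -0.030. The mast cell and basophil list had 0.096, with 0.12 for Mcpt8 and 0.17 for Prss34, proteases of basophils. The 16 measured eosinophil surface and lipid mediator genes had a median of 0.069. Alox15, a lipoxygenase made in quantity by eosinophils, was the lowest of the 16 at -1.02, followed by Adgre4 at -0.63, and Csf2ra was the highest at 0.33. Siglecf, a sialic acid binding lectin on mouse eosinophils, had 0.10. Rnase2a, a related ribonuclease, had -0.026.

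NeuT 12-week replicate 1 was a milder case. It lay 0.38 below its group mean for Prg3, 0.60 below for Epx, 0.43 below for Il5ra and 0.30 below for Ear6. It lay 0.18 below for Prg2 and 0.095 below for Ear10, but 0.28 above for Ccr3. On this array the B-cell list lay 0.94 below its group mean and the erythroid list 0.14 above. The deviation was -0.041 for the neutrophil list and -0.042 for the mast cell and basophil list. Without it the 12-week NeuT differences were 0.39 for Ear6, 0.33 for Epx and 0.19 for Prg3, with adjusted p of 0.147, 0.221 and 0.550 in limma.

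**Figure D4:**
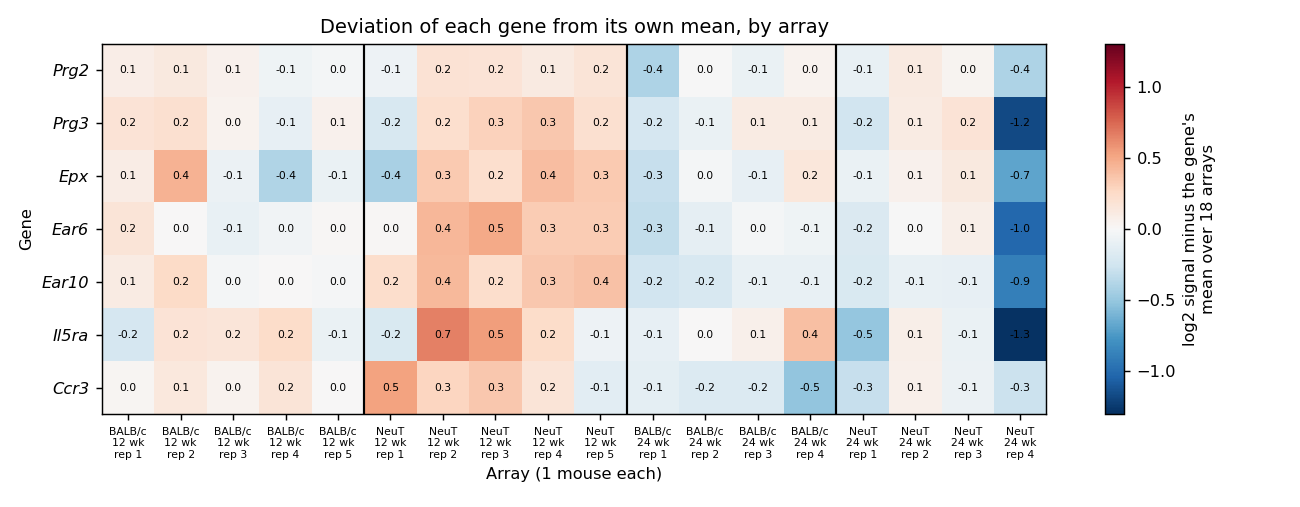
Log2 signal of each of the 7 genes minus that gene's mean over all 18 arrays, 1 column per array, ordered by group; cells carry the value to 1 decimal. NeuT 24-week replicate 4 is the darkest blue column from Prg3 to Il5ra, and NeuT 12-week replicates 2 to 5 are red for Prg3, Epx, Ear6 and Ear10.

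The genes most like the granule genes were sought by Pearson's r with the mean of Prg2, Prg3 and Epx, the 3 genes with a mean above the 95th percentile of the controls. Over the 18 arrays the 8 highest were Ccr9 (0.78), Rnf103 (0.78), Rnf10 (0.77), Cadm1 (0.76), Alox15 (0.76), Apol10a (0.75), Pnrc1 (0.75) and Cxcr6 (0.75). After removal of group means they were Ccr9 (0.96), Cadm1 (0.85), Fbxo32 (0.84), Sla2 (0.82), Cd53 (0.81), Ly6d (0.81), Ypel3 (0.79) and Nmb (0.79). Ccr9, a chemokine receptor best known from thymocytes and gut-homing lymphoid cells, thus led both lists. Over all arrays its r was 0.58 without NeuT 24-week replicate 4, where that of Cd53 was 0.81. With group means removed the r of Ccr9 was 0.94 without that array, where that of Alox15 was 0.35 against 0.68 with it. These are descriptions of the arrays, without a test. Ccr9 itself differed by -0.15 at 12 weeks and -0.55 at 24 weeks between NeuT and BALB/c mice (adjusted p = 0.707 and 0.274).

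Among the other ribonuclease genes listed, 4 of 12 were measured (Ear14, Rnase2a, Rnase2b and Rnase6), and none passed at either age. Rnase2a read 8.41 in BALB/c control mice and 8.74 in NeuT mice at 12 weeks on average (difference 0.33, 95% interval 0.087 to 0.57, adjusted p = 0.108) and 8.44 in both at 24 weeks (difference -0.00082). Ear14 read below the control median on all 18 arrays, with a difference of -0.17 at 12 weeks (adjusted p = 0.260).

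Among other eosinophil surface and lipid mediator genes, 16 of 18 were measured. At 12 weeks 1 of 16 passed, higher in NeuT mice, against 3.84% of all genes in either direction, with a list median of 0.11. This was Cysltr1, a receptor for cysteinyl leukotrienes, which rose by 1.06 (adjusted p = 0.0120), though it read below the control median on 17 of 18 arrays. At 24 weeks none of 16 passed and the list median was 0.19. The smallest p there were those of Csf2ra, the alpha chain of the GM-CSF receptor (difference 0.43, adjusted p = 0.0638), and Alox5ap, the activating protein of 5-lipoxygenase (0.36, adjusted p = 0.116). Siglecf differed by 0.13 at 12 weeks and 0.35 at 24 weeks (adjusted p = 0.535 and 0.187).

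Of the 12 transcription factors of eosinophil development, 1 passed at each age, against 3.84% of all genes at 12 weeks and 1.40% at 24 weeks. Id1, an inhibitor of helix-loop-helix factors, rose in NeuT mice at 12 weeks by 0.69 (adjusted p = 0.0100). Cebpe, a factor required for granule protein genes of neutrophils and eosinophils, rose at 24 weeks by 0.62 (adjusted p = 0.0481); it also stands in the neutrophil list. Gata1 differed by -0.12 and -0.11 at 12 and 24 weeks (adjusted p = 0.348 and 0.581) and Gata2 by 0.16 and 0.14.

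Of the 12 growth factors and chemoattractants, Tslp, an epithelial and stromal cytokine that acts on type 2 cells, was the only one to pass at either age, against 3.84% of all genes at 12 weeks and 1.40% at 24 weeks. It rose in NeuT mice by 0.34 at 12 weeks (adjusted p = 0.0419) and by 0.87 at 24 weeks (adjusted p = 0.00029). Il5, the main eosinophil growth factor, differed by -0.24 at both ages (adjusted p = 0.0788 and 0.192) and read below the control median on 5 arrays. Ccl11, the eotaxin ligand of Ccr3, read below it on all 18 arrays.

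Genes of other blood cells present in the preparation are set beside the eosinophil genes, and their part in the eosinophil values was not tested. Of the 12 mast cell and basophil genes, 2 rose in NeuT mice at 12 weeks, against 3.15% of all genes. These were Ms4a2 (0.62, adjusted p = 0.0049) and Fcer1a (0.41, adjusted p = 0.0113), which encode chains of the high-affinity IgE receptor. None passed at 24 weeks, against 1.40% of all genes in either direction. Ms4a2 read below the control median on 3 of 18 arrays and above the 95th percentile of the controls on 0. The mean log2 signal of the 12 genes per array was 9.36 to 9.55 and 9.54 to 9.67 in BALB/c and NeuT mice at 12 weeks, and 9.32 to 9.59 and 9.41 to 9.55 at 24 weeks. Mcpt8 and Prss34 read above the 95th percentile of the controls on 18 arrays, while the mast cell proteases Mcpt4 and Tpsab1 read below the control median on 18 and Cma1 on 17. Of the same list, Tpsb2 read below that median on 0 arrays (8.49 to 9.18), and Cpa3 read above the 95th percentile on 14.

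Of the 12 neutrophil genes 6 rose at each age, against 3.15% of all genes at 12 weeks and 1.18% at 24 weeks, with list medians of 0.82 and 1.01. Their mean per array was 9.81 to 10.57 and 10.04 to 11.66 in BALB/c and NeuT mice at 12 weeks, and 9.83 to 10.37 and 10.39 to 11.44 at 24 weeks. The eosinophil genes, with medians of 0.18 and -0.16, had none. This is a comparison of counts and medians, and the difference between the lists was not tested. The 8 measured B-cell genes of 9 had medians of -0.55 and -0.77. None passed, against 3.84% of all genes in either direction at 12 weeks and 1.40% at 24 weeks. All 8 differences were negative at both ages. At an unadjusted p under 0.05 (limma) there were 5 at 12 weeks and 6 at 24 weeks, against 21.0% and 13.2% of all genes. Their mean per array was 11.05 to 11.26 and 9.76 to 11.17 in BALB/c and NeuT mice at 12 weeks, and 11.14 to 11.40 and 10.06 to 11.11 at 24 weeks. The 12 measured stromal genes had medians of -0.023 and 0.12, with none passing at 12 weeks and Vcam1 rising at 24 weeks (0.47, adjusted p = 0.0233).

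**Figure D5:**
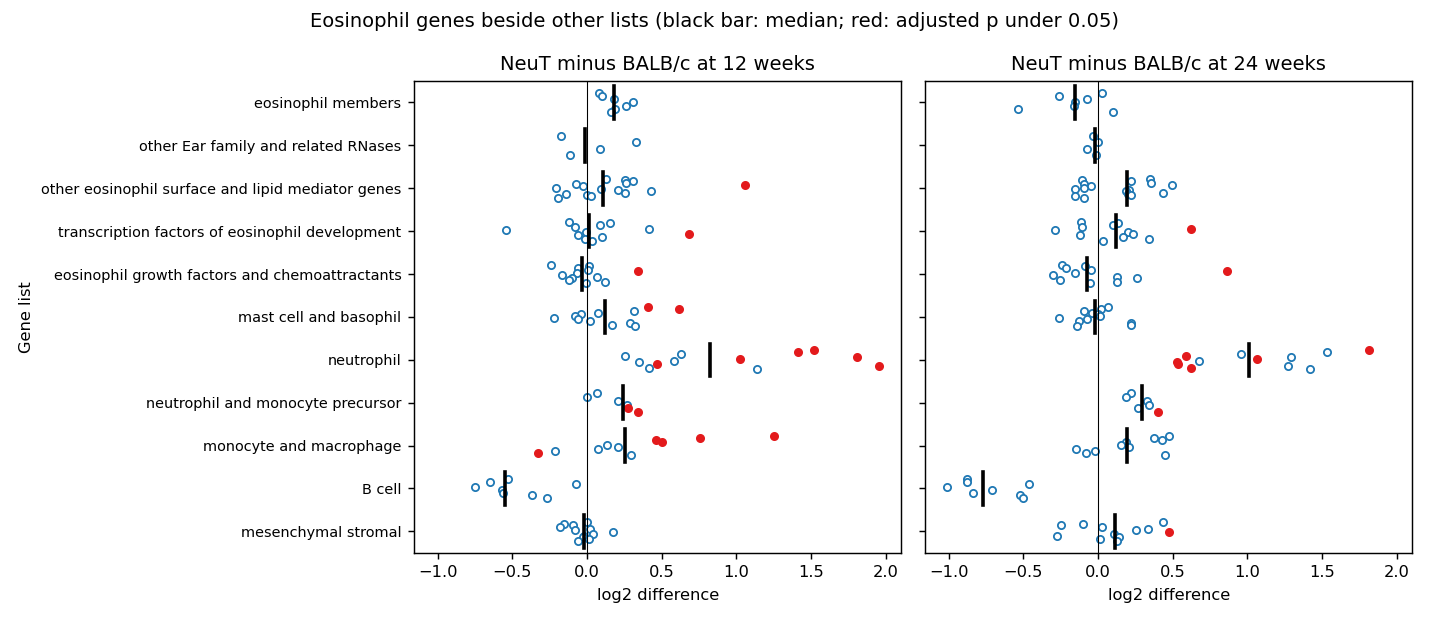
Log2 difference between NeuT and BALB/c mice at 12 weeks (left) and 24 weeks (right) for each measured gene of the eosinophil set and of 10 other lists, with a bar at the list median; filled red points passed at an adjusted p under 0.05 in limma. The eosinophil medians are 0.18 and -0.16 with no filled point, and the neutrophil medians are 0.82 and 1.01 with 6 filled points at each age.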

How the data were processed

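The deposited table gives log2 signals, 1 per probe set and array. The submitters' processing notes list RMA, which removes background, equalises quantiles and sums up probes, and the Transcriptome Analysis Console. For both the version, and for the table the genome build, is not given in the sources used here. Gene symbols came from the platform annotation. Of 29129 probe sets, 19572 had 1 gene symbol, and for the 55 genes with several the one with the highest mean was kept, giving 19505 genes. Low signals were not filtered.

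With limma 3.58.1 in R 4.3.3, 4 group means were fitted per gene over all 18 arrays. Two-sided p-values were corrected across the 19505 genes by Benjamini-Hochberg, and 0.05 was the threshold. The script was tested on simulated data. The genes, lists and tests were chosen with earlier results of these data known. The 9 listed genes were always named; from other lists, up to 4 genes past the threshold, or else the 2 with the smallest p, beside known markers given as values. Replicates of a group are different mice and carry no shared numbers between groups. Sequences came from RefSeq's promoter table (GRCm38.p6) and were aligned with Biopython 1.88. Figures used matplotlib 3.10.9 in Python 3.11.15.

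Alternatives were cyclic loess, a second quantile normalisation, centring on array medians, filters at the negative controls' median and 95th percentile, averaging of probe sets per gene, trend and robust variances, array weights, only the groups compared, leaving out each array in turn, and leaving out the 3 arrays of lowest correlation.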

Additional observations from a re-analysis of the deposited data

Results flagged for a closer look

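In 5 of 28 combinations of gene and group, 1 mouse lay farther from the others than Dixon's 95% limit allows; chance gives about 1 in 20. NeuT 12-week replicate 1 was low for Prg2 (13.79, nearest mouse 13.97), Prg3 (12.24, nearest 12.65) and Epx (10.48, nearest 11.13). NeuT 24-week replicate 4 was low for Ear10 (6.86, nearest 7.55). BALB/c 24-week replicate 4 was low for Ccr3 (5.95, nearest 6.28), a signal below the control median. The genes vary together between mice, so the 3 values from NeuT 12-week replicate 1 are not independent of one another.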

How the results depend on the processing

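No measured eosinophil gene that was tested passed between NeuT and BALB/c mice at 12 or 24 weeks, or for the change with age, under any alternative; the 95th percentile filter tested 3 of the 7. Between ages in NeuT mice 1 passed (Ear10, adjusted p 0.0153 to 0.248 over all alternatives) and 0 passed under quantile normalisation, cyclic loess, median centring, the 95th percentile filter (which leaves out Ear10), only the groups compared and without the 3 arrays of lowest correlation; leaving out single arrays gave 0 to 3. In BALB/c mice Ccr3 passed under array weights (1 gene, adjusted p = 0.0279). That setting passed 2375 of 19505 genes for the same contrast, against 113 in the main fit. Ccr3 read below the control median on all 18 arrays, so the size of any change in its transcript is not known.

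Signs reversed as follows. Prg2 at 24 weeks was -0.093 under quantile normalisation, -0.081 under cyclic loess and -0.054 under array weights, and Epx between ages in BALB/c mice was 0.041 under array weights. Leaving out single arrays gave, at 24 weeks, -0.074 to 0.13 for Prg2, -0.42 to 0.034 for Prg3, -0.17 to 0.10 for Epx, -0.28 to 0.090 for Ear6 and -0.24 to 0.029 for Ear10. It gave -0.16 to 0.044 for Epx and -0.062 to 0.10 for Il5ra between ages in BALB/c mice, and -0.15 to 0.011 for Ccr3 and -0.15 to 0.048 for Prg2 for the change of the NeuT difference. The cause was not tested.

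Counts over all genes moved more. For age in BALB/c mice (113) they were 182 with quantile normalisation, 174 above the 95th percentile, 226 above the control median, 2375 with array weights, 183 with only the groups compared, 1277 without the 3 arrays, and 0 to 589 without single arrays. For age in NeuT mice (7) they were 3 with quantile normalisation and with cyclic loess, 1 with centring, 33 and 13 with the filters, 13 with trend and robust variances, 72 with array weights, 0 with only the groups compared, 0 without the 3 arrays, and 1 to 177 without single arrays. For the change of the NeuT difference (2) they were 4 with quantile normalisation, the 95th percentile filter and robust variances, 1 with centring, 10 with array weights, 0 without the 3 arrays, and 1 to 3 without single arrays. At 12 weeks (749) they were 2088 with array weights and 230 to 1363 without single arrays. At 24 weeks (274) they were 114 with quantile normalisation, 101 with cyclic loess, 176 above the 95th percentile, 577 with array weights, 1 with only the groups compared, 15 without the 3 arrays, and 8 to 641 without single arrays.

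No paired analysis was possible because the labels give the groups no shared replicate numbers. With 4 or 5 mice a group, the 95% intervals of the NeuT differences reached as far as 0.61 (Ear6 at 12 weeks) and -0.98 (Il5ra at 24 weeks).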
